A study of Homo sapiens with 4 samples.

Results

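SLC7A5, a plasma membrane transporter of large neutral amino acids, and 9 further amino acid transporter genes were followed in TET1-reprogrammed and control ovarian cancer cells. The 10 genes (SLC7A5, SLC3A2, SLC7A11, SLC7A1, SLC1A4, SLC1A5, SLC38A1, SLC38A2, SLC7A6 and SLC43A1) were chosen by symbol from the 26506 genes of the expression tables, and all 10 were found in all 4 libraries. SLC7A5 had been picked because it was lower in TET1-reprogrammed cells of both cell lines, so its change and that of the genes listed with it describe these libraries and were not tested.

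RNA sequencing covered HeyC2 and SKOV3, both established human ovarian cancer cell lines. Cells of each line received 3 µg of either the TET1 plasmid pCMV6/TET1 or a plasmid without insert by Lipofectamine 2000, and all 4 cultures, controls included, were kept in 400 µg/ml Geneticin. TET1 is an enzyme that oxidises methylated cytosine in DNA, and the labels name neither the age of the cultures nor whether the selected cells were 1 clone or a pool. The comparison asks how transcription differs once TET1 is expressed, and a single library was sequenced per condition, so no difference has a replicate check.

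Amino acid transporters set which amino acids a cell can import and exchange, and many are raised in tumours. SLC3A2 is a glycoprotein heavy chain that brings several light chains to the plasma membrane. Its partner SLC7A5 exchanges leucine and other large neutral amino acids against intracellular glutamine, and its partner SLC7A11 imports cystine in exchange for glutamate.

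Levels are given in TPM, which here is the deposited FPKM of a library rescaled so that every library has the same total, and therefore per transcript length. A relative log2 change is the log2 of TET1 over control, with 1 TPM added to both, minus the median of the same quantity over all genes with a mean of at least 1 TPM in that cell line. That median was 0.01 in HeyC2 (12867 genes) and 0.28 in SKOV3 (14177 genes). Genes at least 1.5-fold lower or higher, a relative log2 change of 0.585 in size, were counted as lower or higher.

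The 4 libraries held an estimated 6600000 to 7430000 fragments, and 15162 to 16941 genes were above 0. In the deposited FPKM, GAPDH was identical between TET1 and control, and all values of the TET1 library carried a factor of 3.23 in HeyC2 and 1.35 in SKOV3. The all-gene median of the deposited values was accordingly 1.61 (log2) in HeyC2 and 0.59 in SKOV3. TET1 itself was low in all 4 libraries, at 0.41 TPM in control and 1.03 in TET1-reprogrammed HeyC2, and at 0.91 and 3.95 in the same order in SKOV3. The epithelial genes KRT8 and KRT18 and the Müllerian marker PAX8 were high in all 4 libraries, whereas the ovarian carcinoma markers WT1, MUC16 and WFDC2 were at 0 in both HeyC2 libraries and WT1 was at 0 in the SKOV3 control. Of 11 epithelial and ovarian markers, 7 to 9 reached 1 TPM in each library, and their summed level was 2747 TPM and 4283 in HeyC2 control and TET1 and 5763 and 2729 in SKOV3 control and TET1. In SKOV3 the keratin genes KRT7 (3251 and 48.2 TPM) and KRT19 (539.5 and 1.01) and the surface marker MSLN (21.8 and 0.18) were lower with TET1, and in HeyC2 all 3 were higher. Of 11 markers of blood, endothelial, stromal and liver cells, 1 to 4 reached 1 TPM, and their sum was 43.9 TPM and 197 in HeyC2 control and TET1 and 5.60 and 70.5 in SKOV3. CD3E, a defining T cell marker, was at 0 in every library. CDH5, an endothelial cadherin, made up most of the HeyC2 sums (39.1 and 187 TPM), and COL1A1, a collagen chain, was at 60.7 TPM in SKOV3 TET1 and 0.68 in its control. These marker sums were higher in TET1 in both lines, and their part in the transporter changes was not tested. In bulk RNA, fewer cells of a kind and less RNA per cell cannot be told apart.

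SLC7A5 was lower in the TET1-reprogrammed cells of both lines. SLC7A5 stood at 33.2 TPM in control and 5.46 in TET1-reprogrammed HeyC2, and 897 in control and 389 in TET1-reprogrammed SKOV3. Both SKOV3 libraries were therefore far above both HeyC2 libraries, and in each line the TET1 library was the lower one. The relative log2 change was -2.41 in HeyC2 (5.32-fold lower) and -1.48 in SKOV3 (2.80-fold lower). Among all genes tested, 0.249% changed as low or lower in HeyC2 and 3.15% in SKOV3. The values rested on an estimated 522, 82, 13487 and 5132 fragments, and the counting error was largest in HeyC2 TET1, at 11.1% of the level.

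SLC7A5 has near-identical partial copies, SLC7A5P1 and SLC7A5P2, among which reads could have been split. SLC7A5P1 stood at 3.71, 13.2, 34.7 and 17.7 TPM in HeyC2 control, HeyC2 TET1, SKOV3 control and SKOV3 TET1. Both copies together held an estimated 12, 23, 63 and 36 fragments, and SLC7A5 with both copies held 534, 105, 13550 and 5168. The sum over all 3 genes was thus lower in TET1 in each line, like SLC7A5 alone.

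The SLC7A5 gene lies on chromosome 16 at chr16:87863629-87903113 of GRCh37, the build of the deposited tables, on the minus strand. The 10 nearest genes tested, 5 on each side, had a median relative log2 change of -0.27 in HeyC2 and 0.03 in SKOV3. None of these 10 neighbours was called lower in HeyC2 (0 of 10, beside 11.0% of all genes tested), with a range of -0.40 to 0.52. In SKOV3, 2 of 10 were called lower (beside 20.2% of all genes tested), with a range of -0.76 to 0.51. Nothing is read from these counts. By the ranges, no neighbour fell as far as SLC7A5 in either line.

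The RefSeq promoter of SLC7A5 (250 bases before to 50 after the start, GRCh38.p14) had 44 CpG and 80.3% GC, more CpG than 95.8% of 35116 promoters. The promoters of SLC7A1 (49 CpG) and SLC7A6 (48 CpG) had more, and 14 of the 16 promoters of the 9 transporter genes with an entry were above the median of 14. TET1 acts on methylated CpG, but methylation was not analysed here. The promoter held CACGTG, the E-box bound by MYC and related factors and present on either strand in 7.26% of all promoters. SLC1A5 (relative log2 change -1.12 in HeyC2 and 0.53 in SKOV3) and SLC43A1 (0.51 and 1.87) held it too (3 of 9 genes, in 3 of the 16 promoters). Whether it acts on any of these genes was not tested. The stretch that holds it, up to the last base before the start, is shown because it belongs to the gene with the greatest fall in HeyC2 among the 10. It lies at chr16:87869508-87869677 (minus strand) and is written 5′ to 3′ with the motif, 130 bases before the start, in capitals.
SLC7A5: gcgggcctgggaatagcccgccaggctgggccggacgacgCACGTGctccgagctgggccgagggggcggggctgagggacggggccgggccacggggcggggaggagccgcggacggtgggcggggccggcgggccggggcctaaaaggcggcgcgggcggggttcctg

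SLC3A2, the heavy chain, was lower with TET1 in both lines relative to all genes, although its GAPDH-scaled FPKM as deposited was 1.25 times its control in HeyC2. The levels were 114 TPM in control and 42.0 in TET1-reprogrammed HeyC2, and 779.6 in control and 536 in TET1-reprogrammed SKOV3. As for SLC7A5, both SKOV3 libraries were above both HeyC2 libraries and each TET1 library was below its control. The relative log2 change was -1.42 in HeyC2 (2.68-fold lower) and -0.82 in SKOV3 (1.77-fold lower), and 12.2% of the genes tested in SKOV3 changed as low or lower. In SKOV3 it missed the limit without centring, at -0.54 in TPM and -0.17 in FPKM as deposited, so that it was then not called lower in both lines.

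Of the RefSeq promoters of SLC3A2, 1 held TGACTCAGC, the core of the antioxidant response element bound by NFE2L2, which occurred on either strand in 0.561% of all promoters. It contains the reverse complement of TGAGTCA, the AP-1 motif found in 4.95% of promoters, so SLC3A2 counts under both. The same promoter held TGATGNAA, an element core bound by ATF4 with C/EBP partners and present in 3.62%. Both stretches are shown, from GRCh38.p14 on the plus strand, because SLC3A2 is the shared partner of the light chains. The first is chr11:62881622-62881698 with TGACTCAGC 37 bases before the start in capitals, and the second is chr11:62881726-62881748 with the reverse complement of TGATGNAA after the start in capitals.
SLC3A2: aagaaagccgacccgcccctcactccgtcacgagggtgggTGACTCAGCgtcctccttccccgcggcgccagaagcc
SLC3A2: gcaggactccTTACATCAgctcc

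SLC7A11, the cystine light chain, was lower with TET1 in both lines, and by more than the heavy chain. Its level was 15.4 TPM in control and 3.04 in TET1-reprogrammed HeyC2, and 72.7 in control and 27.5 in TET1-reprogrammed SKOV3. The order of the libraries was the same as for SLC3A2 within each line, and HeyC2 TET1 was the lowest of the 4. The relative log2 change was -2.03 in HeyC2 (4.08-fold lower) and -1.65 in SKOV3 (3.15-fold lower), where only 2.41% of the genes tested changed as low or lower. The antisense gene SLC7A11-AS1, which overlaps it, was at 0.14 to 0.87 TPM. SLC7A11 itself lies at chr4:139085251-139163503 (GRCh37).

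SLC7A6, a light chain that exchanges cationic against neutral amino acids, passed 1.5-fold in neither line. It stood at 20.5 TPM and 25.7 in HeyC2 control and TET1, and at 20.3 and 32.5 in SKOV3 control and TET1. Both controls were nearly equal, and both TET1 libraries were above them. The relative log2 changes were 0.31 in HeyC2 and 0.37 in SKOV3. In TPM without centring it passed the limit in SKOV3 (0.65). SLC7A6OS overlaps SLC7A6 on the opposite strand, at 29.4 to 37.7 TPM, and since the counting is not stated to use strand, shared reads cannot be told apart.

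The makeup of the light chains therefore differed between TET1 and control. The summed level of the 6 light chains of SLC3A2 (SLC7A5, SLC7A6, SLC7A7, SLC7A8, SLC7A10 and SLC7A11) was 70.2 TPM in control and 35.0 in TET1-reprogrammed HeyC2, and 996 in control and 451 in TET1-reprogrammed SKOV3. SLC7A5 made up 47.3% of this sum in the HeyC2 control and 15.6% in HeyC2 TET1, while SLC7A6 made up 29.2% and 73.6%. In SKOV3 the share of SLC7A5 was 90.1% in the control and 86.3% in TET1. The major light chain by RNA thus changed from SLC7A5 to SLC7A6 in HeyC2 and stayed SLC7A5 in SKOV3.

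The ratio of SLC7A5 to SLC3A2 was 0.292 in control and 0.130 in TET1-reprogrammed HeyC2, and 1.15 in control and 0.726 in TET1-reprogrammed SKOV3. Both lines had the lower ratio in TET1, where SLC7A5 was reduced further than the heavy chain. The ratio of SLC7A11 to SLC3A2 was 0.136 and 0.0725 in HeyC2 control and TET1 and 0.0932 and 0.0512 in SKOV3. Summed light chains over heavy chain moved up in HeyC2, from 0.618 to 0.833, and down in SKOV3, from 1.28 to 0.841. Of the further light chains, SLC7A7 passed the filter in SKOV3 alone, at 4.04 TPM in the control and 0.70 in TET1 (relative log2 change -1.85). It passed through the control library alone, so that a lower value there follows from the filter. SLC7A8 and SLC7A10 were below 1.5 TPM in all 4 libraries.

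**Figure D1:**
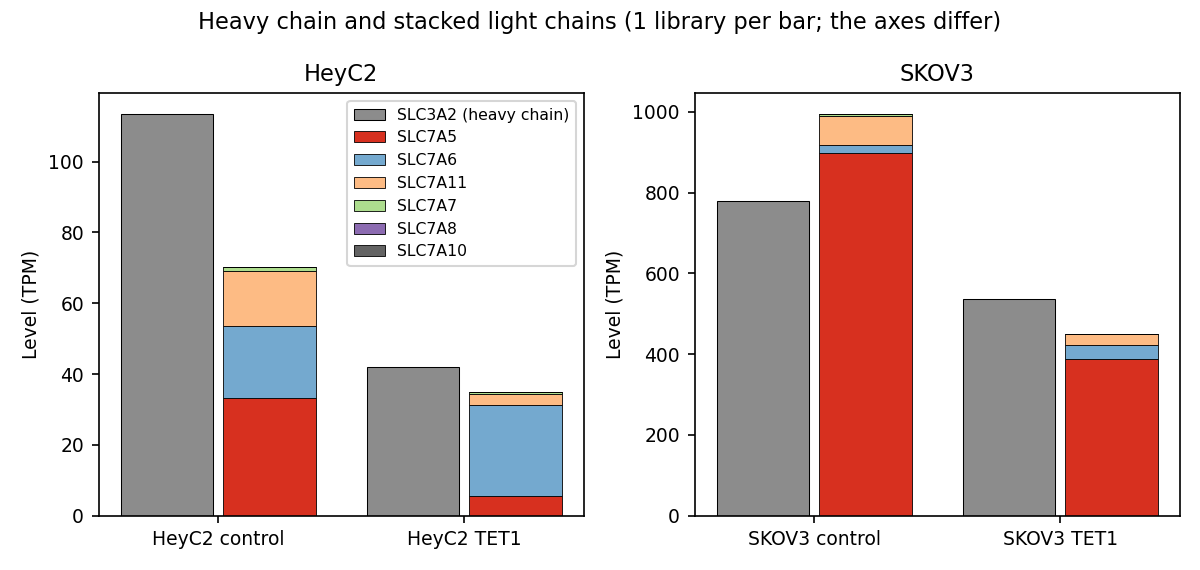
Level in TPM (y axis) of the heavy chain SLC3A2 (grey bars) and of its stacked light chains (coloured bars) in the control and TET1 libraries of HeyC2 (left) and SKOV3 (right), whose axes differ in range. SLC7A5 holds 47.3% and 15.6% of the light chains in HeyC2 control and TET1 and 90.1% and 86.3% in SKOV3. There is 1 library per condition and no error bar.

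SLC1A4 and SLC1A5, sodium-dependent exchangers of small neutral amino acids, moved differently in the 2 lines. SLC1A5, the main glutamine exchanger of the pair, stood at 80.0 TPM in control and 36.4 in TET1-reprogrammed HeyC2, and 131 in control and 231 in TET1-reprogrammed SKOV3. The TET1 library was the lower of its pair in HeyC2 and the higher in SKOV3. The relative log2 change was -1.12 in HeyC2 (2.18-fold lower), where the FPKM as deposited was 1.54 times its control, and 0.53 in SKOV3, just inside the 1.5-fold limit. SLC1A5 passed that limit in SKOV3 with a mean of at least 5 TPM (0.60), centred FPKM as deposited (0.59), upper-quartile scaling (0.75) and TPM without centring (0.81), and was then lower in HeyC2 and higher in SKOV3.

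SLC1A4 stood at 13.3 TPM in control and 4.29 in TET1-reprogrammed HeyC2, and 15.6 in control and 30.3 in TET1-reprogrammed SKOV3. Both controls were close together, and the TET1 libraries lay on opposite sides of them. Its relative log2 change was -1.44 in HeyC2 (2.72-fold lower), against a ratio of 1.09 in the FPKM as deposited, and 0.64 in SKOV3 (1.55-fold higher). The HeyC2 TET1 level rested on an estimated 64 fragments.

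SLC1A4, SLC1A5, SLC38A1, SLC3A2 and SLC7A1 were the 5 of 9 members with a RefSeq promoter that held TGATGNAA, in 5 of their 16 promoters in all, against 3.62% of all promoters. The stretches are shown because the 5 genes that share these letters were all negative in HeyC2 but differed in direction in SKOV3. In the order above, the relative log2 changes were -1.44, -1.12, -0.24, -1.42 and -0.41 in HeyC2. In SKOV3 they were 0.64, 0.53, 0.23, -0.82 and -0.92. Whether the motif acts on any of these genes was not tested. All are from GRCh38.p14, 5′ to 3′, with the match in capitals on the strand as written: SLC1A4 at chr2:64989352-64989399 (plus strand, reverse complement of the motif), and, on the minus strand, SLC1A5 at chr19:46784815-46784951, SLC38A1 at chr12:46266513-46266560 and SLC7A1 at chr13:29595664-29595691. The match is 7 bases before the start in SLC1A4, 97 in SLC1A5 and 4 in SLC38A1, and it lies after the start in SLC7A1.
SLC1A4: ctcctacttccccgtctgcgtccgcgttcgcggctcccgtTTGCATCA
SLC1A5: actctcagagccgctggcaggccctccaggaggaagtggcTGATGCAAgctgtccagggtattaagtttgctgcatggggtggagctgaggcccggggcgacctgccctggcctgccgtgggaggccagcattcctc
SLC38A1: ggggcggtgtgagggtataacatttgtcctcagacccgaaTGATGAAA
SLC7A1: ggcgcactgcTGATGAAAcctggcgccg

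SLC7A1, the main transporter of arginine and lysine in many cells, was lower in SKOV3 and did not pass 1.5-fold in HeyC2. It stood at 59.1 TPM in control and 44.5 in TET1-reprogrammed HeyC2, and 81.9 in control and 52.3 in TET1-reprogrammed SKOV3. The TET1 library was the lower one in both lines. The relative log2 change was -0.41 in HeyC2 and -0.92 in SKOV3 (1.89-fold lower, with 9.90% of genes tested as low or lower). In HeyC2 its FPKM as deposited was 2.55 times the control.

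SLC38A1 and SLC38A2, sodium-coupled importers of glutamine, alanine and other small neutral amino acids, are neighbours on chromosome 12. In GRCh37 they lie at chr12:46576846-46663800 and chr12:46751971-46766556, both on the minus strand, with 88170 bases and 0 annotated genes between them. SLC38A2 stood at 192 TPM in control and 327 in TET1-reprogrammed HeyC2, and 126 in control and 206 in TET1-reprogrammed SKOV3. Each TET1 library was above its control, and relative to all genes SLC38A2 was 1.69-fold higher in HeyC2 (log2 0.76) and did not pass the limit in SKOV3 (0.42), which it did with upper-quartile scaling (0.64) and in TPM without centring (0.70).

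SLC38A1 stood at 69.8 and 59.4 TPM in HeyC2 control and TET1, and at 72.4 and 104 in SKOV3. Its relative log2 changes of -0.24 and 0.23 were both inside the limit, and both controls were nearly equal. SLC38A2 was thus above its neighbour in all 4 libraries.

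SLC43A1 carries large neutral amino acids, as SLC7A5 does, but by facilitated diffusion and without a heavy chain. It stood at 6.76 TPM in control and 10.1 in TET1-reprogrammed HeyC2, and 1.27 in control and 9.07 in TET1-reprogrammed SKOV3. The SKOV3 control was the lowest of the 4, and it rested on an estimated 10 fragments. The relative log2 change was 0.51 in HeyC2, inside the limit, and 1.87 in SKOV3 (3.65-fold higher). Both of its RefSeq promoters had more CpG than the median promoter (23 and 19 against 14).

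**Figure D2:**
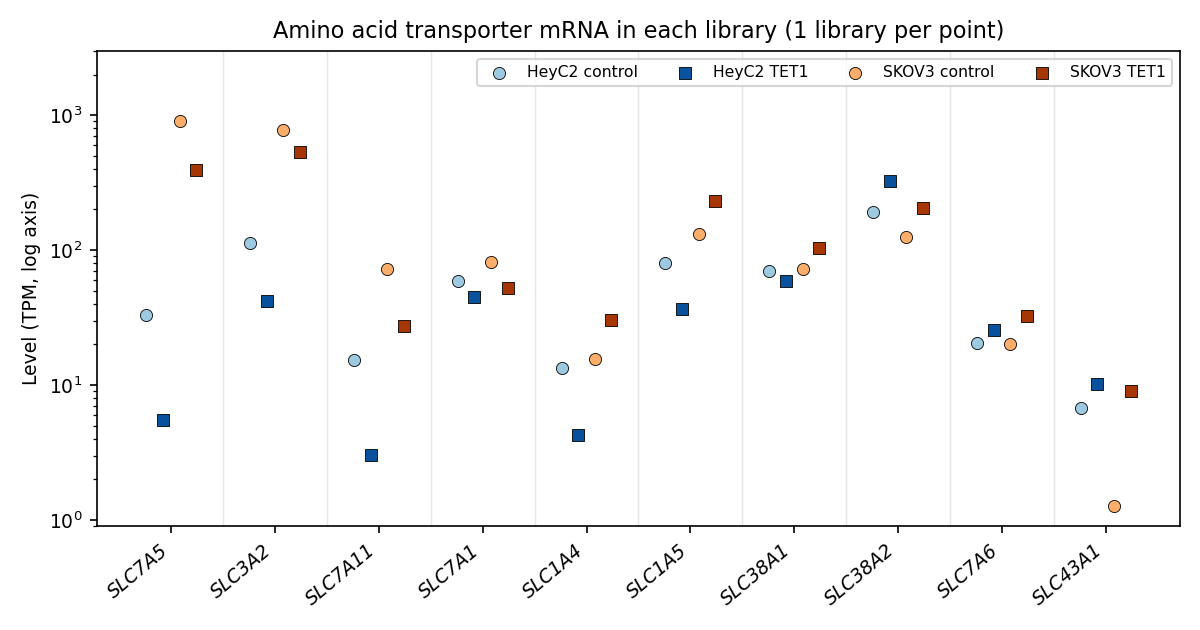
Level of each of the 10 transporter genes in TPM (log axis) in the control and TET1 libraries of HeyC2 and SKOV3, 1 point per library. SLC7A5 goes from 33.2 to 5.46 in HeyC2 and from 897 to 389 in SKOV3, whereas SLC38A2 is higher with TET1 in both lines.

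Counted together, 5 of the 10 transporter genes were lower with TET1 in HeyC2 (11.0% of all genes tested were), 1 was higher (14.9% of all genes) and 4 were neither. In SKOV3, 4 of 10 were lower (20.2% of all genes) and 2 were higher (23.6%). The split of all SKOV3 calls moved with the scaling: TPM without centring gave 1577 of all genes lower and 4899 higher, and upper-quartile scaling 1829 and 4505, beside 2860 and 3339 here. SLC7A5, SLC3A2 (with centring) and SLC7A11 were lower in both lines (3 of 10, beside 3.03% of the 12160 genes tested in both). With centring on the median, none was higher in both (0 of 10, beside 4.70%). SLC38A2 was higher in both with upper-quartile scaling (0.80 in HeyC2 and 0.64 in SKOV3) and in TPM without centring (0.77 and 0.70). SLC1A4 was the 1 gene lower in HeyC2 and higher in SKOV3 (beside 2.11%). None was higher in HeyC2 and lower in SKOV3 (0 of 10, beside 2.32%). Since the genes were listed with these changes known, nothing is read from the shares. The median relative log2 change over the 10 genes was -0.77 in HeyC2, where the deposited FPKM without centring gave 0.97, and 0.30 in SKOV3, beside 0 for all genes by construction.

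**Figure D3:**
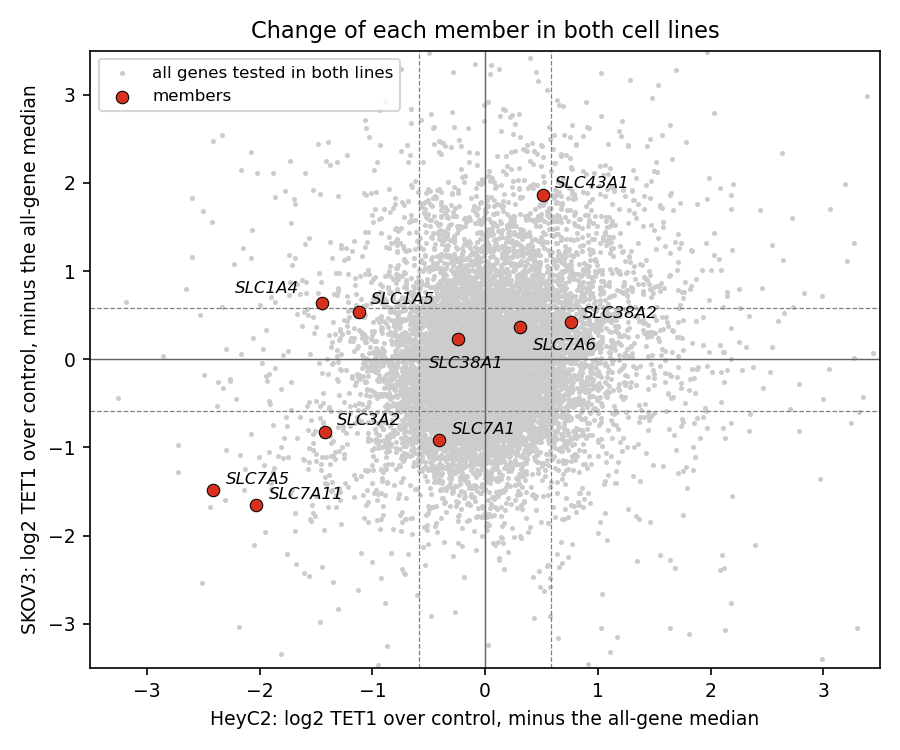
Relative log2 change, TET1 over control, in HeyC2 (x axis) and SKOV3 (y axis), with the 10 transporter genes in red, genes tested in both lines in grey and dashed lines at 1.5-fold; 52 genes beyond the axes are not drawn. SLC7A5, SLC3A2 and SLC7A11 lie in the lower left corner, although in HeyC2 SLC3A2, SLC1A4 and SLC1A5 were above their control in the GAPDH-scaled FPKM as deposited.

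The order of the transporters by TPM differed between the lines, and with 1 library each the order has no spread. SLC38A2 had the highest level of the 10 in both HeyC2 libraries and SLC43A1 the lowest in the control, and SLC7A11 the lowest in HeyC2 TET1. SLC7A5 ranked 6 of 10 in control HeyC2 and 8 in TET1-reprogrammed HeyC2, whereas in SKOV3 it ranked 1 in the control and 2, behind SLC3A2, with TET1. The 10 genes summed to 603 TPM in control and 558 in TET1-reprogrammed HeyC2, and 2198 in control and 1618 in TET1-reprogrammed SKOV3. SLC7A5 made up 5.50%, 0.978%, 40.8% and 24.1% of these sums in the same order, and SLC38A2 31.8%, 58.6%, 5.73% and 12.7%.

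Between the controls, 3 of the 10 were at least 1.5-fold lower in HeyC2 than in SKOV3 (30.2% of 13613 genes were) and 2 were higher (30.4%), after subtracting an all-gene median of -0.31. The lower genes were those of the heavy chain and its 2 partners that fell with TET1: SLC7A5 was 21.1-fold, SLC3A2 5.48-fold and SLC7A11 3.61-fold higher in the SKOV3 control. SLC43A1 was 4.25-fold and SLC38A2 1.89-fold higher in the HeyC2 control. The tables of the lines were deposited separately, so these levels are set side by side as a description.

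The genes nearest to SLC7A5 in pattern over the 4 libraries, by Euclidean distance of log2 levels after removing each gene's mean, were DSP (0.57), GCHFR (1.35), HES1 (1.36), LOC100505817 (1.45) and APOL1 (1.52), of 12160 genes. The distance also takes in the level difference between the lines, so a near gene need not be lower with TET1 in both. In SKOV3, HES1 (312 and 355 TPM in control and TET1, relative log2 change -0.09) and APOL1 (144 and 215, 0.29) were inside the limit. DSP (-0.84), GCHFR (-1.25) and LOC100505817 (-3.34) were lower there. Of these, DSP, a desmosomal linker, stood at 6.34, 0.752, 146 and 98.4 TPM in HeyC2 control, HeyC2 TET1, SKOV3 control and SKOV3 TET1. In HeyC2, DSP, GCHFR (2.03 and 0.532 TPM in control and TET1) and LOC100505817 (5.53 and 0.868) passed the filter through the control alone. Their lower values there follow from the filter. SLC3A2 came at rank 34 (distance 2.27) and SLC7A11 at rank 100 (2.84). With a pseudocount of 0.1, 3 of the 5 nearest genes were the same, and with a mean of at least 5 TPM, 1.

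The regulators known to act on these transporters followed no single direction. Of 15, 5 were lower and 1 higher in HeyC2 (median -0.39), and 6 were lower and 6 higher in SKOV3 (median -0.09). Here and for the lists that follow, 11.0% of all genes tested were lower and 14.9% higher in HeyC2, and 20.2% and 23.6% in SKOV3. ATF4, which drives transcription of amino acid transporters on amino acid shortage, stood at 586, 590.1, 475 and 983 TPM in HeyC2 control, HeyC2 TET1, SKOV3 control and SKOV3 TET1. ATF4 RNA was therefore level between the HeyC2 libraries (relative log2 change 0.00) and higher in SKOV3 TET1 (0.77).

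DDIT3, TRIB3 and CEBPG were lower in HeyC2 and higher in SKOV3. DDIT3, a stress-induced C/EBP family member, changed by -1.69 in HeyC2 and 1.14 in SKOV3. TRIB3, a pseudokinase that restrains ATF4, changed by -1.59 and 2.11, and CEBPG, a dimer partner of ATF4, by -0.78 and 1.03. ATF5 was the 1 regulator lower in both lines (-0.92 and -1.34). SLC1A4, SLC1A5 (-1.12 and 0.53) and SLC38A1 (-0.24 and 0.23) had the same signs as DDIT3, TRIB3 and CEBPG, not all of them past the limit. SLC7A5, SLC3A2 and SLC7A11 were negative in both lines. A link between regulators and transporters was not tested.

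MYC, an activator of SLC7A5 and SLC1A5 transcription in many tumours, stood at 56.8, 65.9, 147 and 96.2 TPM in the same order of libraries. Its relative log2 change was 0.21 in HeyC2, inside the limit, and -0.89 in SKOV3. Its partner MAX was inside the limit in both (-0.06 and -0.24). NFE2L2, an activator of SLC7A11, was inside the limit in both lines (-0.39 and -0.09), while its inhibitor KEAP1 was lower in SKOV3 (-1.09) and not in HeyC2 (-0.17). BACH1, a repressor at the same elements, was at 0.02 and -0.70, and the hypoxia factor EPAS1 was at 0.59 and -0.68. ATF3 was at -0.51 and 0.03, CEBPB at -0.53 and 0.59, and the amino acid shortage kinase gene EIF2AK4 at -0.31 and -0.75.

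Glutathione synthesis and cystine use, a list of 13 genes that holds SLC3A2 and SLC7A11, had 6 lower and 1 higher in HeyC2 (median -0.52) and 7 lower and 2 higher in SKOV3 (median -0.73). Both counts of lower genes include SLC3A2 and SLC7A11, which were listed with their changes known, and the SKOV3 count was 3 in TPM without centring. GGT1, the 1 higher gene in HeyC2 (0.767 and 3.18 TPM), passed the filter through the TET1 library alone, so a higher value follows. With centring, TXNRD1, TXN, CTH, SLC3A2 and SLC7A11 were lower in both lines. TXNRD1, thioredoxin reductase, stood at 347 TPM in control and 127 in TET1-reprogrammed HeyC2, and 306 in control and 155 in TET1-reprogrammed SKOV3. CTH, which makes cysteine from cystathionine, changed by -0.95 in HeyC2 and by -3.47 in SKOV3. CBS, the enzyme before CTH, changed by -0.39 and 2.33, and CHAC1, which degrades glutathione, by -0.92 and 3.58.

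Of 16 genes of glutamine and asparagine use, 14 were tested in HeyC2, with 2 lower and 0 higher (median -0.12), and 16 in SKOV3, with 4 lower and 5 higher (median -0.24). GLS2, counted as higher in SKOV3 (0.507 and 2.53 TPM), passed the filter through the TET1 library alone, so a higher value follows. ASNS, asparagine synthetase, stood at 46.0 TPM in control and 7.89 in TET1-reprogrammed HeyC2, and 20.3 in control and 143 in TET1-reprogrammed SKOV3. It was the lowest of the 4 in HeyC2 TET1 and the highest in SKOV3 TET1, with relative log2 changes of -2.41 and 2.48. CTPS1 (-0.29 and -1.27) and GLUD1 (0.01 and -0.85) had the lowest mean over both lines, and GPT2 (-0.18 and 1.60) and PYCR1 (0.53 and 1.56) the highest.

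Of 29 other plasma membrane amino acid transporters, most were not expressed enough to test. In HeyC2, 9 were tested, with 2 lower and 2 higher (median 0.24), and in SKOV3 10, with 1 lower and 5 higher (median 0.26). The SKOV3 count of higher genes was 2 with a mean of at least 5 TPM. SLC1A3, a glutamate transporter, was higher in HeyC2 (2.09), at 16.4 and 73.7 TPM. In SKOV3 it passed the filter through the TET1 library alone (0.317 and 2.23 TPM), as SLC6A9 did (0.761 and 7.60), so that a higher value there follows from the filter. SLC7A7, the 1 lower gene in SKOV3, passed through the control alone, so that its lower value follows from the filter too. SLC7A2, a second cationic amino acid transporter, was higher in HeyC2 (1.71) and not in SKOV3 (-0.09). SLC6A17 (-0.87 and -0.51) and SLC38A6 (-0.37 and -0.35) had the lowest mean over both lines.

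Of 11 genes listed as lysosomal amino acid transporters, 10 were tested, with 2 lower and 1 higher in HeyC2 (median -0.11) and 2 lower and 0 higher in SKOV3 (median -0.21). SLC29A3 (-0.31 and -0.71), which is chiefly a nucleoside transporter, had the lowest mean over both lines and was 1 of the 2 called lower in SKOV3. The other was PQLC2, the lysosomal exporter of cationic amino acids, at 0.17 in HeyC2 and -1.16 in SKOV3. SLC36A4 (0.71 and -0.13) and CTNS, the cystine exporter (0.26 and 0.45), had the highest means.

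Of 19 genes of branched-chain amino acid catabolism, 3 were lower and 2 higher in HeyC2 (median -0.22) and 0 were lower and 3 higher in SKOV3 (median 0.20). BCAT1, the cytosolic aminotransferase of leucine, valine and isoleucine, was lower in HeyC2 (-0.99) and inside the limit in SKOV3 (-0.37). MCCC2 was at -0.39 and -0.46, HIBADH at 0.34 and 0.51, and ACAD8 at 0.78 and 0.34.

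Of 32 genes that pass the amino acid signal to mTORC1, 31 were tested in HeyC2, with 5 lower and 0 higher (median -0.11), and 32 in SKOV3, with 5 lower and 11 higher (median 0.04). SESN3, counted as higher in SKOV3 (0.190 and 2.02 TPM), passed the filter through the TET1 library alone. DEPTOR, counted as lower in HeyC2 (1.70 and 0.397 TPM), passed through the control alone. Both directions follow from the filter. MTOR itself was lower in HeyC2 (-0.91) and inside the limit in SKOV3 (-0.42). LAMTOR1, a lysosomal anchor of the pathway, was lower in SKOV3 (-1.25) and at -0.07 in HeyC2. DDIT4, an inhibitor of mTORC1, was higher in SKOV3 (2.42) and at -0.35 in HeyC2, and RRAGB was at 0.32 and 1.12.

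Of 9 genes of transporter turnover and membrane partners, 1 was lower and 2 higher in HeyC2 (median 0.04) and 4 were lower and 1 higher in SKOV3 (median -0.50). CD44, which stabilises SLC7A11 at the membrane, was lower in both lines (-0.96 and -0.72). CAV1 (0.60 and -1.68) and SGK1, a kinase that keeps transporters at the surface (1.47 and -0.64), were higher in HeyC2 and lower in SKOV3. BSG, a membrane partner of SLC3A2, was at 0.00 and -0.66, and ITGB1, the integrin that binds SLC3A2, at 0.01 and -0.34. The ubiquitin ligase genes NEDD4L (-0.54 and -0.35) and NEDD4 (0.27 and 0.06) were inside the limit in both lines, RNF5 was at 0.04 and 0.80, and OTUB1 at 0.48 and -0.50.

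**Figure D4:**
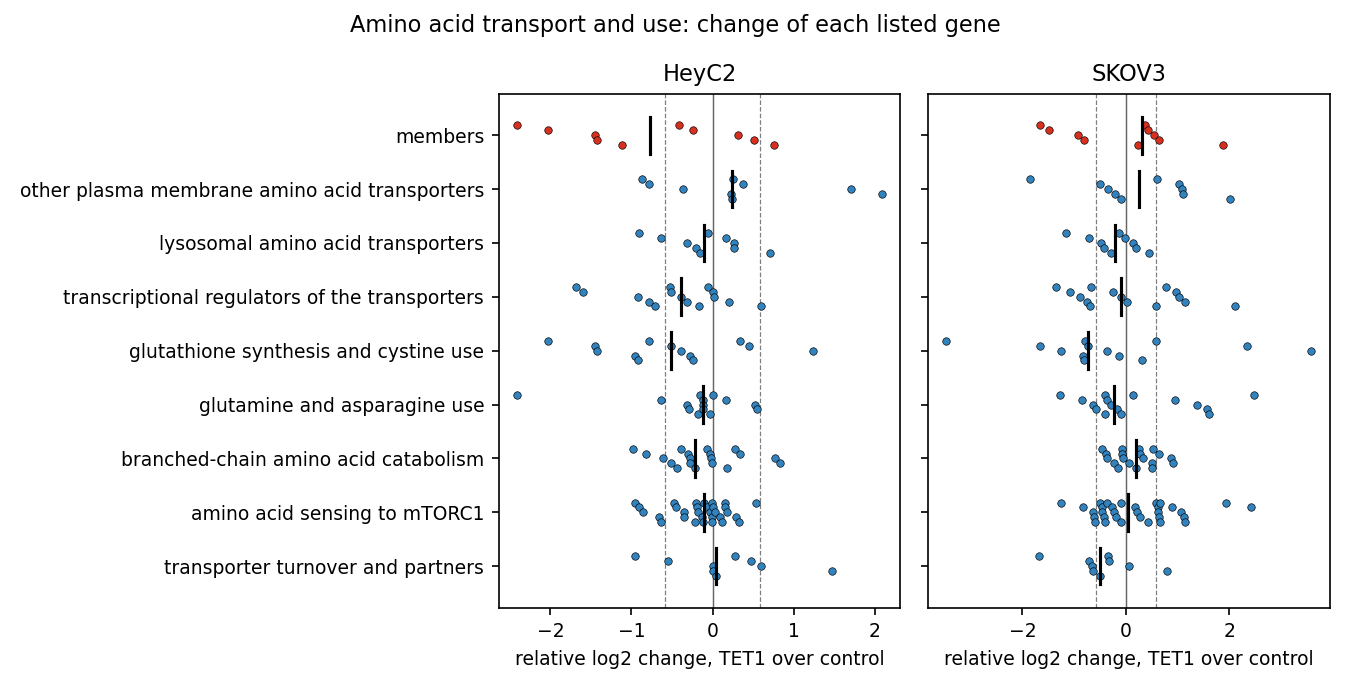
Relative log2 change, TET1 over control, of every tested gene of each list in HeyC2 (left) and SKOV3 (right), with a black bar at the list's median and dashed lines at 1.5-fold. The 10 transporter genes (red) have medians of -0.77 and 0.30, and in the deposited FPKM without centring the HeyC2 median is 0.97. SLC3A2 and SLC7A11 appear both in red and in the glutathione and cystine list.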

How the data were processed

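The authors aligned paired-end TruSeq RNA reads (150 bp) to hg19 with Bowtie2 2.2.6 and quantified genes with RSEM 1.2.17, per the labels and the submitters' processing notes. The deposited values are FPKM, fragments per kilobase of transcript and per mapped total, for 26506 genes in 1 table per cell line. The deposited FPKM of each TET1 library also carry 1 constant factor that sets GAPDH to its control value, a step recovered from the value steps. Each library was therefore rescaled to the same total (TPM) before a pseudocount of 1 was added, filtered at a mean of at least 1 and centred on the median log2 change. Depth is not given by FPKM and was estimated from the smallest FPKM steps of genes with 1 transcript, and counting errors per gene follow from it and 1 transcript length per gene.

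No test was made, since each condition has 1 library. The members and the gene lists were chosen with earlier results of these data known. Named were all members, TET1, regulators and turnover genes, further light chains of SLC3A2, the 2 genes with the highest and the 2 with the lowest mean change in every other list, ASNS and the 5 genes nearest to SLC7A5. TXNRD1, TXN, SLC6A9, GGT1, GLS2, SESN3 and DEPTOR, and among the markers KRT7, KRT19, MSLN, CDH5 and COL1A1, were named after their values were seen. Some genes of the lists are counted but not reported here by name. Positions come from a GRCh37 annotation and promoters from RefSeq on GRCh38.p14. The calculation was run on simulated data: 200 of 200 genes changed 4-fold were recovered among 12610 genes for HeyC2 and among 13288 for SKOV3. The changed genes had a control FPKM of at least 5, the noise was counting noise alone, and recovery meant passing 1.5-fold. This checks the arithmetic only, and not smaller changes, lower genes, false calls or variation between libraries. Python 3.11.15, numpy 2.4.6, pandas 2.3.3 and matplotlib 3.10.9 were used. Alternatives were pseudocounts of 0.1 and 0.01, no filter, a mean of at least 5, FPKM as deposited with and without centring, TPM without centring, upper-quartile scaling, and limits of 2-fold and 1.2-fold.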

Additional observations from a re-analysis of the deposited data

Results flagged for a closer look

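DEPTOR (-0.96 in HeyC2 and 0.66 in SKOV3) is left aside here, since its lower value in HeyC2 follows from the filter. For a further 12 genes named above the libraries of the 2 cell lines moved past 1.5-fold in opposite directions. In each case the difference between the lines was not tested, as there is 1 library per condition. Values are the relative log2 change in HeyC2 minus that in SKOV3. Among the transporters this was SLC1A4 (-2.08, from -1.44 and 0.64). ASNS differed by -4.89 (from -2.41 and 2.48) and CHAC1 by -4.51 (from -0.92 and 3.58). Of the regulators, TRIB3 differed by -3.70, DDIT3 by -2.83 and CEBPG by -1.82, all lower in HeyC2 and higher in SKOV3. EPAS1 (1.28), SGK1 (2.12), CAV1 (2.28) and the epithelial genes KRT7 (8.21), KRT19 (9.20) and MSLN (5.21) were higher in HeyC2 and lower in SKOV3. EPAS1 in HeyC2 (0.59) and CAV1 in HeyC2 (0.60) lie just past the limit of 0.585, and without the filter on low values no regulator, EPAS1 included, was called higher in HeyC2 (0 of 15).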

How the results depend on the processing

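No paired analysis was possible because the values come from no test: each TET1 library is set against the control of its own line. A model that takes the lines as replicates was not run. The changes of the 10 transporters in both lines kept their sign and moved by less than the spread of genes of like expression under both pseudocounts, no filter, a mean of at least 5, upper-quartile scaling, TPM without centring and centred FPKM as deposited. FPKM as deposited without centring, which keeps the GAPDH factor of the authors by construction, differed. In HeyC2 it gave SLC3A2 0.32, SLC1A4 0.11, SLC1A5 0.61 and a median of 0.97, all reversed, and SLC7A5 at -0.78. It counted 1 transporter lower and 6 higher, and 65 of all genes lower and 12441 higher. In SKOV3 it gave a median of 0.93, 2 transporters lower and 6 higher, and 586 of all genes lower and 6702 higher. TPM without centring gave SKOV3 a median of 0.58, 3 transporters lower and 5 higher, and 1577 of all genes lower and 4899 higher. Upper-quartile scaling gave 4 transporters lower and 4 higher, and 1829 genes lower and 4505 higher. Signs were kept, but SLC3A2, SLC1A5, SLC38A2 and SLC7A6 crossed the 1.5-fold limit in SKOV3 under TPM without centring, upper-quartile scaling or both. The 2-fold limit, a stricter count by construction, gave HeyC2 481 genes lower and 767 higher with 0 transporters higher, and SKOV3 1168 lower and 1847 higher with 2 transporters lower and 1 higher. The 1.2-fold limit gave HeyC2 3635 lower and 3819 higher with 3 transporters higher, and SKOV3 5000 lower and 5179 higher with 5 transporters higher. Of 32 counts over the other lists, 26 moved by over 1.5 times in uncentred deposited FPKM, 22 at 2-fold, 19 at 1.2-fold, and 0 to 9 in each other setting. The cause of the other moves was not tested. Depth limits SLC43A1 in the SKOV3 control, SLC1A4 and SLC7A5 in HeyC2 TET1, and TET1 itself.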
